A study of Homo sapiens with 12 samples.

Results

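The BCL2 family decides whether the outer membrane of the mitochondrion stays intact, and 10 of its genes were followed here by their mRNA: BCL2, BCL2L1, MCL1, BCL2A1, BCL2L11, BBC3, PMAIP1, BID, BAX and BAK1. They were chosen by name from the 57353 gene names of a count table, of which 30572 had a count and 12998 passed a filter on low counts. All 10 had counts, and all 10 passed the filter. The RNA came from MOLM-13, an established human acute myeloid leukemia (AML) cell line that carries an internal tandem duplication in the receptor kinase FLT3 (FLT3-ITD), so that every group shared this background. There were 12 poly-A-selected RNA-seq libraries, 3 replicates in each of 4 groups, taken after 15 hr. Cells in RPMI, the regular medium, received either DMSO (vehicle) or 3 nM quizartinib (AC220), which inhibits the FLT3 kinase. The other two groups received the same vehicle or 3 nM quizartinib in hBMSC-CM, that is RPMI mixed with medium conditioned by the human bone marrow stromal line HS-5. The study asked how soluble factors of marrow stroma change the response of FLT3-ITD cells to FLT3 inhibition, and in these 12 libraries marrow is represented by the medium of 1 stromal line on 1 leukemia line, with no stromal cells present.

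Members of the family fall into 3 roles. BCL2, BCL-XL (gene BCL2L1), MCL1 and BFL-1 (gene BCL2A1) are anti-apoptotic: they hold the pro-apoptotic members in a groove that binds the BH3 helix. BIM (gene BCL2L11), PUMA (gene BBC3), NOXA (gene PMAIP1) and BID share only that helix with the rest of the family in sequence and are called BH3-only proteins, which sense stress and occupy the groove or activate the effectors. BAX and BAK (gene BAK1) are the effectors, which form pores through which cytochrome c leaves the mitochondrion and starts the caspase cascade. In myeloid leukemia, BCL2 and MCL1 are known for holding BIM in check, and BCL2 is the target of venetoclax. Much of the family's control lies in protein turnover, phosphorylation and cleavage, none of which a count of mRNA reads.

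Total counts per library lay between 19966546 and 31546104. Levels are given as CPM, the count scaled by the library total and its TMM factor, and a count of 0 would allow up to 0.0951 to 0.15 CPM (3 counts, counting error only). No library looked like a second copy of another. Of 12 myeloid markers 10 passed the filter, with a summed level of 1330 CPM for vehicle and 2010 CPM for quizartinib in RPMI and of 1600 and 2430 CPM in hBMSC-CM. The markers did not all move with that sum. With the drug 6 were higher and 4 lower in RPMI (CD33 -0.28, CEBPA -0.4, MPO -0.41 and ITGAM -1.01, log2 changes), where 79.3% of all genes tested were called (edgeR adjusted p under 0.05), and 5 were higher and 2 lower in hBMSC-CM (67.1% of all genes). LYZ led the list in every group but quizartinib in RPMI, where PTPRC led, and ANPEP and CD68 were below 1 CPM in all 4 groups. For CD68 81.6% of the exon bases lie under another annotated gene on the same strand, so its count may miss reads. Of 12 stromal markers only COL1A1 and TAGLN passed the filter, and COL3A1, COL5A1, THY1, LUM, DCN and POSTN had no count in any library. The summed stromal level was 3.96 CPM for vehicle and 12 CPM for quizartinib in RPMI and 3.67 and 6.57 CPM in hBMSC-CM, with TAGLN as the gene of the highest mean. COL1A1 went from 0.177 to 4.61 CPM in RPMI and from 0.225 to 0.992 CPM in hBMSC-CM with the drug. For TAGLN 38.1% of the exon bases lie under another annotated gene on the same strand, so its count may miss reads. Of 6 lymphoid markers only NKG7 passed, and CD3E had no count. NKG7 had means of 16.8 CPM for vehicle and 15.9 CPM for quizartinib in RPMI and of 21.7 and 27 CPM in hBMSC-CM. It was called higher in hBMSC-CM with vehicle (log2 difference 0.37, 32.1% of all genes called) and with quizartinib (0.78, 69.8% of all genes called). Mitochondrially encoded genes also took a larger share of the counts with quizartinib, 1.05% against 0.726% in RPMI and 0.856% against 0.511% in hBMSC-CM. The myeloid and stromal sums and the mitochondrial shares were higher with the drug in both media. Neither their part in the results nor that of NKG7 was tested. In such bulk libraries fewer cells with a transcript and less of it per cell cannot be told apart. The study describes its replicates as biological, and p-values measure the spread between them.

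The promoters of BCL2L11, BBC3, BID and BAX are shown so that the stretches in front of their start sites can be set beside the values. Sequences are RefSeq's, on GRCh38.p14, each up to the annotated start site, and 9 of the 10 members matched an entry; MCL1 did not. Capitals mark letters found by a search on both strands for GTAAACA (a FOXO forkhead site), TTCNNNGAA (a STAT site), CACGTG (the E-box bound by MYC and MAX), TGACGTCA (a CREB and ATF site) and a p53 half-site. The search covered 250 bases before and 50 bases after each start, of which those before it are shown. Of 35116 promoters on file, in that same longer window, 3.42% held the forkhead letters, 7.66% the STAT letters, 7.26% the E-box, 1.85% the CREB letters and 6.63% the p53 half-site. BCL2L11 (chr2:111120664-111120913, plus strand) held the forkhead letters 223 bases before its start. BBC3 (chr19:47232668-47232917, minus strand) held an E-box 232 bases before its start. BID has 5 annotated start sites, and the same E-box lies 47 bases before one (chr22:17774043-17774292, minus strand) and 106 before another. BAX (chr19:48954625-48954874, plus strand) held 4 E-boxes, at 138, 93, 45 and 14 bases before its start.
BCL2L11: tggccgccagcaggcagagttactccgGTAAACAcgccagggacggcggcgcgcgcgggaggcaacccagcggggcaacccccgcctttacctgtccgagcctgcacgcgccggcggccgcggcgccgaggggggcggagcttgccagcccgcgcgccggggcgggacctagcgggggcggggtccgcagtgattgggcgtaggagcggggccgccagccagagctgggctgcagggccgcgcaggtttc
BBC3: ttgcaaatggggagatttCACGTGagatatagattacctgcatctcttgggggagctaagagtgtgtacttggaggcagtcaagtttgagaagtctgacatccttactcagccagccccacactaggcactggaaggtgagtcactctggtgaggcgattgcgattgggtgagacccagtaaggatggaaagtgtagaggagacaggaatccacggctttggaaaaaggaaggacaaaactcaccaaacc
BID: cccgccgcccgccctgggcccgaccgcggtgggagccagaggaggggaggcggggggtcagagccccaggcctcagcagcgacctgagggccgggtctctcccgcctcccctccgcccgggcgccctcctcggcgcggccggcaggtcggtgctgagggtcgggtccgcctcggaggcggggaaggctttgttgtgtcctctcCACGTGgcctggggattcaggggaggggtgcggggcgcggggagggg
BAX: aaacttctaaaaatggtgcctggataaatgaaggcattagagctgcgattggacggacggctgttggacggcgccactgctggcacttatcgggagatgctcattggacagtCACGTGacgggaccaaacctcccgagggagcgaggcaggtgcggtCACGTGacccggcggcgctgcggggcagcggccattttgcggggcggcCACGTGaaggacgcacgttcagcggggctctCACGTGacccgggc
BCL2A1 held STAT letters 168 bases before its start and BAK1 a p53 half-site 73 bases before its start. BCL2, BCL2L1 and PMAIP1 held none of these letters in their windows. A match of this kind describes letters, not binding.

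Per length of exon, MCL1 was the most abundant member in every group, and the order below it shifted with drug and medium. With vehicle in RPMI the level of MCL1 was 46.8 ± 0.564 CPM per kb of exon (SD, n = 3), ahead of BAK1 (26.3 ± 0.993), BAX (24.9 ± 1.43) and BCL2 (17.7 ± 0.465 CPM per kb). BID followed with 14.9 ± 0.274 CPM per kb and PMAIP1 with 13.7 ± 0.441 CPM per kb. BCL2L11 (5.48 ± 0.538), BCL2L1 (3.97 ± 0.113), BBC3 (3.02 ± 0.281) and BCL2A1 (3.01 ± 0.239 CPM per kb) made up the low end. The levels of BAK1 and BAX in this group lay within their spread of each other, and so did those of BBC3 and BCL2A1. BID went from the 5th rank with vehicle to the 7th with quizartinib in RPMI, below BCL2L11, and held the 4th rank in both hBMSC-CM groups. BCL2A1 stood above BBC3 with vehicle in hBMSC-CM and last in the other 3 groups. Dividing by the longest transcript in place of all exons kept MCL1 first in all 4 groups but kept only 4 of the 10 ranks of RPMI with vehicle.

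**Figure D1:**
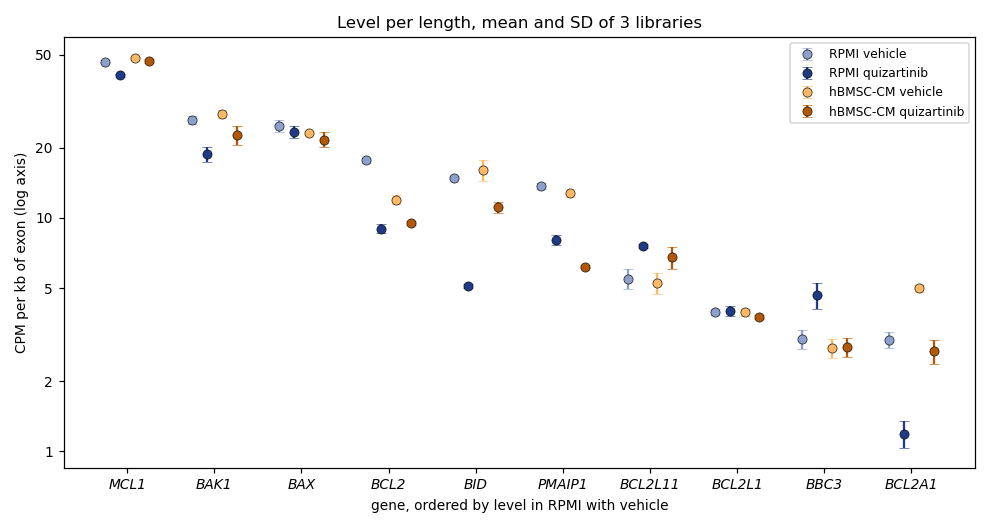
Level of the 10 members in CPM per kb of exon on a log axis, as the mean (points) and SD (bars) of 3 libraries in each of the 4 groups, with genes ordered by vehicle in RPMI. MCL1 sits at the top in every group (40.9 to 48.4 CPM per kb), and BCL2A1 and BID show the widest gaps between groups.

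Quizartinib in RPMI lowered most of the members: 6 of 10 fell (BCL2, MCL1, BCL2A1, PMAIP1, BID and BAK1), 2 rose (BCL2L11 and BBC3), and BCL2L1 and BAX did not pass the test (edgeR's quasi-likelihood test, Benjamini-Hochberg adjusted p under 0.05). Against this, 79.3% of all genes tested were called in that comparison, 40.1% higher and 39.2% lower, so a share of 8 in 10 members is near the background. Treated and untreated libraries did not overlap for 8 members, as for 81.1% of all genes. Without regard to sign, the median log2 fold change was 0.56 over the members and 0.48 over all genes. In hBMSC-CM the same drug was followed by 5 falls (BCL2, BCL2A1, PMAIP1, BID and BAK1) and 1 rise (BCL2L11), where 67.1% of all genes were called, 33.4% higher and 33.7% lower. There the median without sign was 0.31 over the members and 0.3 over all genes, and 8 members did not overlap between the groups, as 68.4% of all genes did not.

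Between the media, cells under quizartinib in hBMSC-CM held more MCL1, BCL2A1, BID and BAK1 mRNA and less BBC3 and PMAIP1 mRNA than cells under quizartinib in RPMI, which makes 4 members higher and 2 lower (69.8% of all genes called, 35.5% higher and 34.3% lower). The libraries of the media did not overlap for 7 members, as for 71.5% of all genes. With vehicle only BCL2A1 was higher and only BCL2 was lower in hBMSC-CM (32.1% of all genes called, 16.6% higher and 15.5% lower), and 4 members did not overlap, as 44.6% of all genes did not. The difference of the drug response between the media, tested as an interaction, passed for 5 members: it was positive for BCL2, MCL1 and BID and negative for BBC3 and PMAIP1 (45.2% of all genes called, 26.1% positive and 19.2% negative). These comparisons share libraries with each other, so their values are set side by side below and are not independent.

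**Figure D2:**
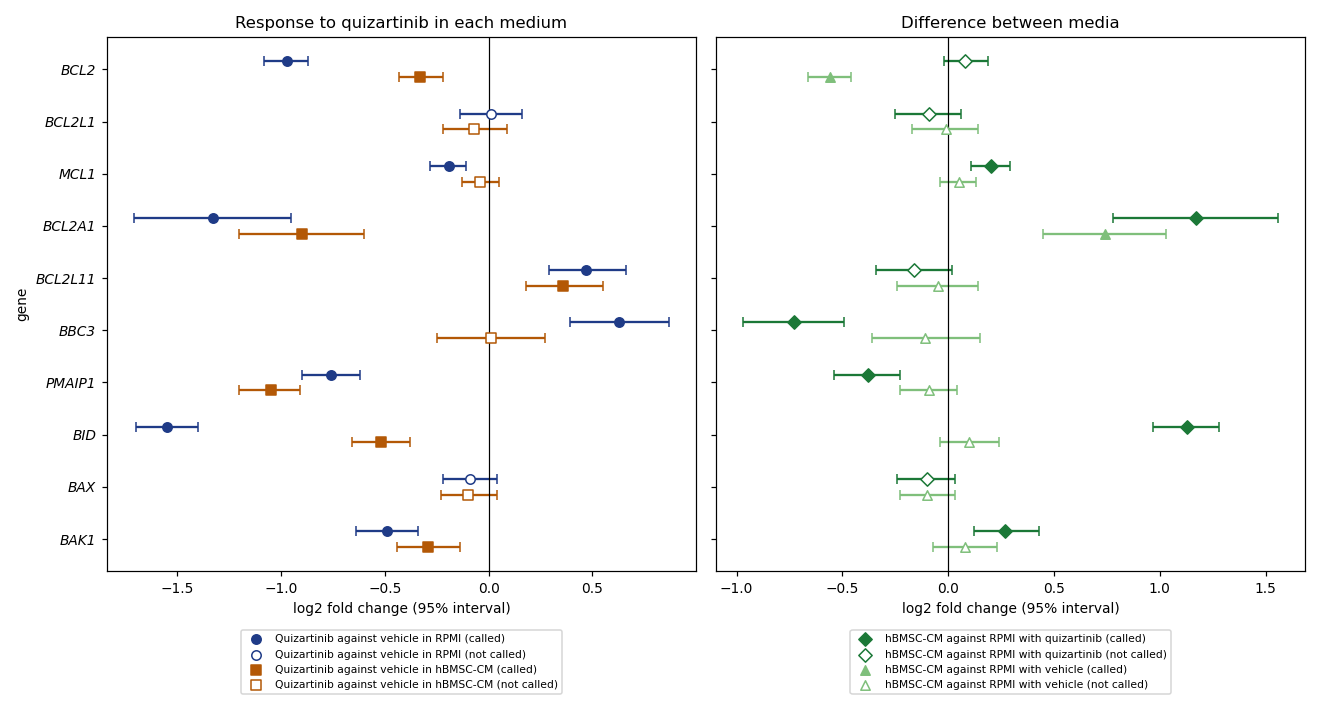
Log2 fold change of each member with its 95% interval, for quizartinib against vehicle in each medium (left) and for hBMSC-CM against RPMI with each treatment (right); filled symbols passed the test and open symbols did not. On the left, BID and BCL2A1 lie farthest from 0 in RPMI (-1.55 and -1.33) and PMAIP1 in hBMSC-CM (-1.05). BBC3 lies right of 0 in RPMI but at 0.01 in hBMSC-CM.

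BCL2 (ENSG00000171791, chr18:63123346-63320128 on GRCh38, minus strand), the anti-apoptotic founder of the family, stood at 216, 227 and 225 CPM with vehicle in RPMI and at 117, 116 and 108 CPM with quizartinib. In hBMSC-CM its level was 157, 153 and 143 CPM with vehicle and 118, 121 and 122 CPM with quizartinib. No groups overlapped: vehicle in RPMI was far above the rest, vehicle in hBMSC-CM came next, and the drug-treated groups lay close together. With the drug in RPMI its log2 change was -0.97 (SE 0.0451, edgeR adjusted p = 2.36e-14), a 1.96-fold fall. In hBMSC-CM the log2 change was -0.33 (SE 0.0454, edgeR adjusted p = 2.16e-06), and the interaction was 0.64 (95% interval 0.5 to 0.79, edgeR adjusted p = 4.74e-08). The smaller response in hBMSC-CM began from a lower level, since the medium alone was accompanied by a log2 difference of -0.56 (edgeR adjusted p = 5.94e-09). Under quizartinib the media did not differ by the test (log2 difference 0.08, 95% interval -0.02 to 0.19, edgeR adjusted p = 0.117). Without a filter on low counts that difference was 0.16 and passed the test (edgeR adjusted p = 0.00611), as it did at 0.12 with edgeR's own filter (edgeR adjusted p = 0.0241).

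MCL1 (ENSG00000143384, chr1:150560895-150579738 on GRCh38, minus strand) encodes a short-lived anti-apoptotic protein that binds BIM and NOXA. It was counted at 288, 295 and 291 CPM with vehicle and 257, 257 and 250 CPM with quizartinib in RPMI. In hBMSC-CM it was counted at 296, 304 and 303 CPM with vehicle and 292, 300 and 287 CPM with quizartinib. The drug-treated cells in RPMI lay below all other libraries, and the vehicle groups, though close, did not overlap either. The fall in RPMI was small, -0.19 on the log2 scale (SE 0.0376, edgeR adjusted p = 8.56e-05), and its size ranged from -0.3 without a filter on low counts to -0.09 with upper-quartile factors over the settings tried. Upper-quartile factors moved the median over all genes from 0.02 to 0.13 (log2) in this comparison. In hBMSC-CM the change was -0.04 (95% interval -0.13 to 0.05, edgeR adjusted p = 0.358). The interaction was 0.15 (95% interval 0.03 to 0.28, edgeR adjusted p = 0.0233), and it missed the threshold without vehicle replicate 2 in RPMI (edgeR adjusted p = 0.0536), without quizartinib replicate 3 in RPMI (0.0629) or without quizartinib replicate 2 in hBMSC-CM (0.0503). With quizartinib, MCL1 stood higher in conditioned medium, by 0.2 on the log2 scale (edgeR adjusted p = 7.82e-05).

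BCL2A1 (ENSG00000140379, chr15:79960892-79971196 on GRCh38, minus strand) encodes BFL-1, an anti-apoptotic protein of blood cells. Its level was 2.74, 3.21 and 3.04 CPM with vehicle in RPMI and 1.01, 1.32 and 1.22 CPM with quizartinib. In hBMSC-CM it stood at 5.11, 4.81 and 4.98 CPM with vehicle and at 2.56, 3.03 and 2.44 CPM with quizartinib. Vehicle in hBMSC-CM was the highest group and quizartinib in RPMI the lowest, while vehicle in RPMI and quizartinib in hBMSC-CM overlapped. The drug lowered it in both media, by a log2 change of -1.33 in RPMI (SE 0.164, edgeR adjusted p = 2.27e-07) and of -0.9 in hBMSC-CM (SE 0.13, edgeR adjusted p = 3.83e-06). The medium raised it with both treatments, by 0.74 with vehicle (edgeR adjusted p = 0.000143) and by 1.17 with quizartinib (edgeR adjusted p = 3.37e-06). The interaction did not pass (0.43, 95% interval -0.06 to 0.92, edgeR adjusted p = 0.108). The value for quizartinib in RPMI rests on 89 counts in 3 libraries.

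BCL2L1 (ENSG00000171552, chr20:31664452-31723989 on GRCh38, minus strand) encodes the anti-apoptotic BCL-XL. Its 12 libraries lay close together, with 17.2, 16.5 and 16.3 CPM for vehicle and 15.9, 17.4 and 17.1 CPM for quizartinib in RPMI. Levels in hBMSC-CM were 16.3, 17.2 and 16.2 CPM with vehicle and 15.6, 15.6 and 16.2 CPM with quizartinib. No comparison called it. The 95% interval of its drug response was -0.14 to 0.16 in RPMI (log2, edgeR adjusted p = 0.874) and -0.22 to 0.09 in hBMSC-CM (edgeR adjusted p = 0.383). On the genome 41.3% of its exon bases lie under the antisense RNA ABALON, which had 22 counts in all 12 libraries together.

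**Figure D3:**
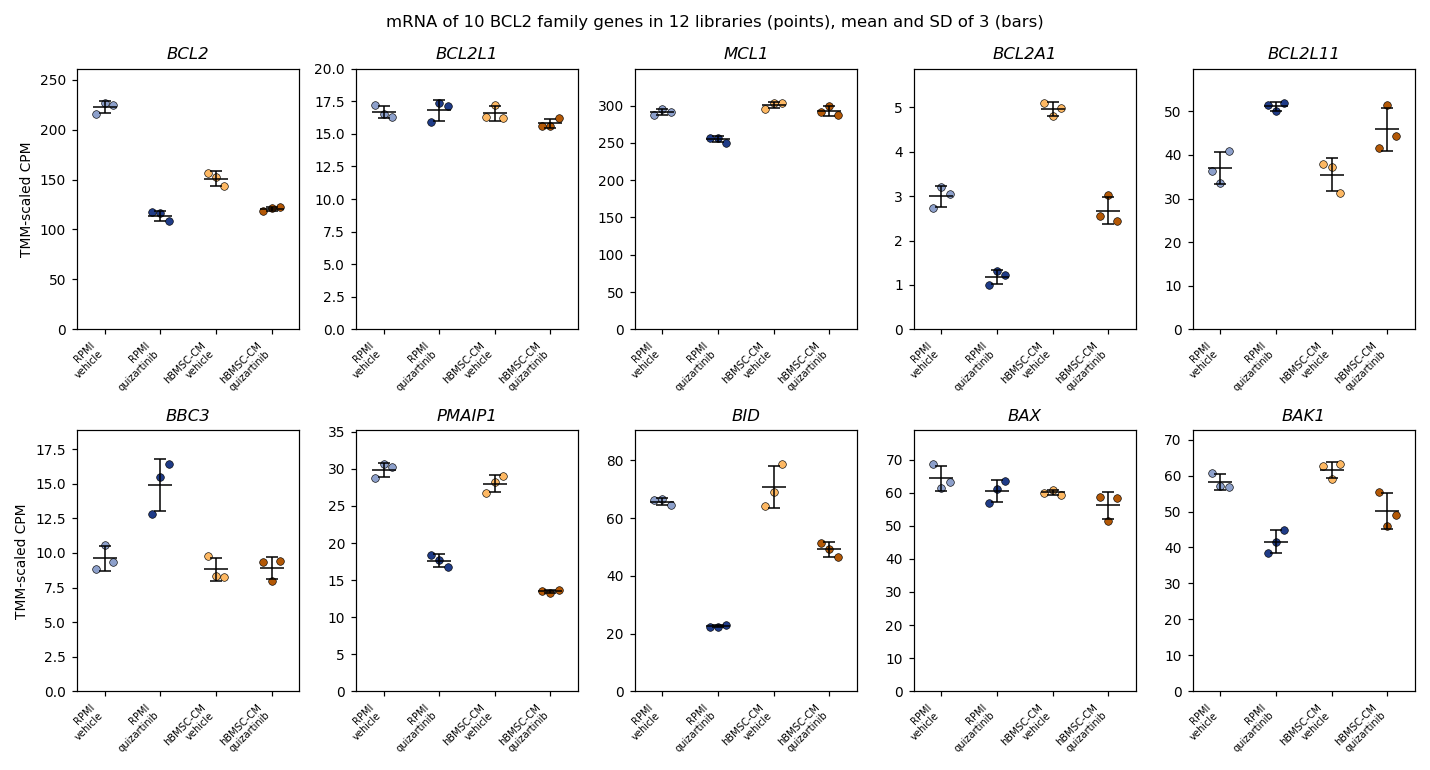
TMM-scaled CPM of the 10 members on linear axes from 0, with a point for each of the 12 libraries and bars for the mean and SD of 3. BID with quizartinib in RPMI (22.2 to 23 CPM) lies below every other library, BBC3 is highest in that group (12.8 to 16.4 CPM), and BCL2L1 lies between 15.6 and 17.4 CPM in all libraries.

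Among the BH3-only genes, those of BIM and PUMA rose and those of NOXA and BID fell with quizartinib in RPMI. BCL2L11 (ENSG00000153094, chr2:111119378-111168444 on GRCh38, plus strand) encodes BIM, which binds all the anti-apoptotic members. It was counted at 36.4, 33.6 and 40.8 CPM with vehicle in RPMI and at 51.5, 50 and 52 CPM with quizartinib. In hBMSC-CM it was counted at 38, 37.3 and 31.2 CPM with vehicle and at 41.7, 51.4 and 44.4 CPM with quizartinib. Treated libraries were above untreated ones in both media without overlap, and the treated groups of the media overlapped each other. The log2 change was 0.47 in RPMI (SE 0.0798, edgeR adjusted p = 1.61e-05) and 0.36 in hBMSC-CM (SE 0.0813, edgeR adjusted p = 0.000534). The interaction was -0.11 (95% interval -0.37 to 0.15, edgeR adjusted p = 0.463), so a smaller response in hBMSC-CM was not detectable here. Left-out libraries gave -0.19 to -0.04 for this interaction. Under quizartinib the difference between the media was -0.16 (edgeR adjusted p = 0.077), which passed the test when quizartinib replicate 2 in hBMSC-CM was left out (-0.24, edgeR adjusted p = 0.0113), with upper-quartile factors (-0.21, edgeR adjusted p = 0.0248), with only the groups compared in the fit (edgeR adjusted p = 0.0408) and without vehicle replicate 3 in hBMSC-CM (edgeR adjusted p = 0.0499). It shrank to -0.09 without quizartinib replicate 1 in hBMSC-CM (edgeR adjusted p = 0.345) and to -0.08 with no filter on low counts (edgeR adjusted p = 0.36). Of its exon bases 10.8% overlap the antisense RNA MIR4435-2HG. That gene went from 18.9 ± 1.1 to 10.1 ± 0.977 CPM with quizartinib in RPMI (SD, n = 3), opposite to BCL2L11. In hBMSC-CM it stood at 23.4 ± 0.211 CPM with vehicle and 21.4 ± 1.06 CPM with quizartinib.

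BBC3 (ENSG00000105327, chr19:47220822-47232766 on GRCh38, minus strand) encodes PUMA, a BH3-only protein known as a target of p53 and of FOXO factors. Its level was 8.86, 10.6 and 9.36 CPM with vehicle and 12.8, 15.5 and 16.4 CPM with quizartinib in RPMI. In hBMSC-CM it was 9.8, 8.36 and 8.26 CPM with vehicle and 9.36, 7.99 and 9.42 CPM with quizartinib. The treated cells in RPMI were the highest group, and the other 3 groups overlapped. BBC3 rose in RPMI by 0.63 on the log2 scale (SE 0.103, edgeR adjusted p = 1.03e-05). In hBMSC-CM the change was 0.01 with a 95% interval of -0.25 to 0.27 (edgeR adjusted p = 0.954). The interaction was -0.62 (95% interval -0.97 to -0.27, edgeR adjusted p = 0.00228), so the response differed between the media. With quizartinib, BBC3 was 1.66-fold lower in hBMSC-CM than in RPMI (log2 difference -0.73, edgeR adjusted p = 2.88e-06).

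PMAIP1 (ENSG00000141682, chr18:59899996-59904305 on GRCh38, plus strand) encodes NOXA, a BH3-only protein that binds MCL1 and BFL-1. It stood at 28.8, 30.6 and 30.3 CPM with vehicle in RPMI and at 18.4, 17.7 and 16.7 CPM with quizartinib. In hBMSC-CM the level was 26.8, 28.3 and 29 CPM with vehicle and 13.5, 13.3 and 13.7 CPM with quizartinib. Both treated groups were below both untreated groups, and the treated cells in hBMSC-CM were the lowest. The log2 change was -0.76 in RPMI (SE 0.0602, edgeR adjusted p = 1.98e-10) and -1.05 in hBMSC-CM (SE 0.0635, edgeR adjusted p = 8.73e-12). PMAIP1 was the only member whose called fall was deeper in hBMSC-CM, with an interaction of -0.29 (95% interval -0.49 to -0.09, edgeR adjusted p = 0.0104), which missed the threshold without a filter on low counts (-0.22, edgeR adjusted p = 0.167). Under quizartinib it was lower in hBMSC-CM (log2 difference -0.38, edgeR adjusted p = 2.99e-05).

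BID (ENSG00000015475, chr22:17734138-17774770 on GRCh38, minus strand) links death receptors to mitochondria, since caspase-8 cuts it into its active form. It was counted at 66.2, 66.7 and 64.4 CPM with vehicle in RPMI and at 22.4, 22.2 and 23 CPM with quizartinib. In hBMSC-CM it was counted at 64.3, 69.1 and 78.6 CPM with vehicle and at 51.5, 49.4 and 46.5 CPM with quizartinib. The untreated groups overlapped, the treated cells in hBMSC-CM lay below them, and the treated cells in RPMI lay far below all others. The fall was 2.92-fold in RPMI (log2 change -1.55, SE 0.0654, edgeR adjusted p = 4.81e-15) and 1.43-fold in hBMSC-CM (log2 change -0.52, SE 0.0607, edgeR adjusted p = 2.12e-07). Its interaction of 1.03 was the largest among the members (95% interval 0.82 to 1.23, edgeR adjusted p = 6.46e-09). Under quizartinib BID was 2.18-fold higher in hBMSC-CM (log2 difference 1.13, edgeR adjusted p = 3.54e-12), and with vehicle the media did not differ by the test (0.1, 95% interval -0.04 to 0.24, edgeR adjusted p = 0.209). Without vehicle replicate 1 in hBMSC-CM that last difference was 0.17 and passed (edgeR adjusted p = 0.0389), and without vehicle replicate 3 it was 0.02 (edgeR adjusted p = 0.863).

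Of the effectors, BAK1 fell with the drug in both media and BAX did not pass either test. BAX (ENSG00000087088, chr19:48954815-48961798 on GRCh38, plus strand) was at 68.5, 61.4 and 63.1 CPM with vehicle and at 56.8, 61.2 and 63.5 CPM with quizartinib in RPMI. In hBMSC-CM it was at 60, 60.9 and 59.4 CPM with vehicle and at 58.8, 51.5 and 58.3 CPM with quizartinib. Its levels were close across the groups, and neither drug comparison called it (RPMI -0.09, 95% interval -0.22 to 0.04, edgeR adjusted p = 0.145; hBMSC-CM -0.1, 95% interval -0.23 to 0.04, edgeR adjusted p = 0.148). In RPMI the difference passed the test with no filter on low counts (-0.19, edgeR adjusted p = 0.00194) and with edgeR's own filter (-0.15, edgeR adjusted p = 0.0263). Left-out libraries gave -0.13 to -0.04 in RPMI and -0.13 to -0.03 in hBMSC-CM. Under quizartinib the difference of BAX between the media was -0.1 (edgeR adjusted p = 0.114), with -0.15 to -0.04 over left-out libraries. It passed the test without quizartinib replicate 1 in RPMI (-0.15, edgeR adjusted p = 0.0338) and with upper-quartile factors (-0.15, edgeR adjusted p = 0.0231).

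BAK1 (ENSG00000030110, chr6:33572547-33580293 on GRCh38, minus strand) was at 60.8, 57.1 and 56.9 CPM with vehicle in RPMI and at 38.5, 41.6 and 44.9 CPM with quizartinib. In hBMSC-CM it was at 62.7, 59.1 and 63.1 CPM with vehicle and at 55.5, 45.9 and 49.1 CPM with quizartinib. Treated libraries were below untreated ones in both media, those in RPMI the lowest of all. BAK1 fell in both media, with a log2 change of -0.49 in RPMI (SE 0.0654, edgeR adjusted p = 7.36e-07) and of -0.29 in hBMSC-CM (SE 0.0646, edgeR adjusted p = 0.000447). In hBMSC-CM the change was -0.19 with scaling by library size only. The interaction did not pass (0.19, 95% interval -0.02 to 0.41, edgeR adjusted p = 0.0933), though it did without quizartinib replicate 3 in RPMI (0.24, edgeR adjusted p = 0.0414), without quizartinib replicate 2 in hBMSC-CM (0.26, edgeR adjusted p = 0.0255) and with no filter on low counts (0.26, edgeR adjusted p = 0.0096). Without quizartinib replicate 1 in hBMSC-CM the interaction was 0.11 (edgeR adjusted p = 0.299). Reads of a processed copy, BAK1P1, came to 0.9% of the counts of BAK1.

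Treated cells in hBMSC-CM were also set against untreated cells in RPMI, to see how far each member lay from its starting level. Of the 10 members 5 were lower (BCL2, PMAIP1, BID, BAX and BAK1) and 1 was higher (BCL2L11), where 62.1% of all genes were called, 30.6% higher and 31.6% lower, and 7 members did not overlap between the groups, as 66.3% of all genes did not. BCL2 stayed 1.85-fold below and PMAIP1 2.21-fold below the untreated level (log2 differences -0.89 and -1.15, edgeR adjusted p = 4.46e-13 and 1.59e-12). BID stayed lower by a log2 difference of -0.42 (edgeR adjusted p = 4.57e-06), and BCL2L11 stayed higher by 0.31 (edgeR adjusted p = 0.00212). MCL1 (0.01, 95% interval -0.08 to 0.09), BCL2A1 (-0.16, 95% interval -0.48 to 0.16) and BBC3 (-0.1, 95% interval -0.35 to 0.15) did not differ by the test from untreated cells, though MCL1 passed as higher with scaling by library size only (0.09, edgeR adjusted p = 0.0342). The small differences of BAX (-0.2, edgeR adjusted p = 0.00564) and BAK1 (-0.21, edgeR adjusted p = 0.00717) missed the threshold without quizartinib replicate 2 in hBMSC-CM (0.0548 and 0.0635) and with scaling by library size only (0.088 and 0.0801).

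Beyond the 10 members, the rest of the family was read from a list of 13 further genes, of which 8 passed the filter on low counts. BOK had no count in any library, BNIP3 had 1 count, and BCL2L10, BCL2L14 and BCL2L15 were also too low to test. With quizartinib 5 of the 8 rose and 1 fell in each medium, though not the same 5 genes rose. BIK rose only in RPMI (log2 change 0.29, edgeR adjusted p = 0.0179). BCL2L2 rose only in hBMSC-CM (0.2, edgeR adjusted p = 0.0334), where its treated and untreated libraries overlapped. Between the media under quizartinib 1 was higher and 5 were lower in hBMSC-CM. Over all genes 40.1% rose and 39.2% fell in RPMI, 33.4% rose and 33.7% fell in hBMSC-CM, and 35.5% were higher and 34.3% lower between the media. The median log2 fold change of the 8 with the drug was 0.33 in RPMI and 0.22 in hBMSC-CM, against 0.02 and 0.01 over all genes. These counts and medians include HRK, which passed the filter only through its treated groups. The largest change of these 8 in RPMI belonged to BMF, a BH3-only gene whose product binds the dynein light chain DLC2 until it is released. BMF stood at 51.9, 55.4 and 51.8 CPM with vehicle in RPMI and at 439, 452 and 449 CPM with quizartinib. In hBMSC-CM it stood at 32.1, 34.2 and 28.1 CPM with vehicle and at 138, 130 and 141 CPM with quizartinib. The 4 groups of BMF were fully apart. In RPMI the rise was 8.42-fold (log2 change 3.07, SE 0.0551, edgeR adjusted p = 8.99e-21). The rise in hBMSC-CM was 4.34-fold (2.12, edgeR adjusted p = 6.71e-17), and the interaction was -0.96 (edgeR adjusted p = 2.38e-09). The medium itself was accompanied by a lower BMF level with vehicle (-0.75, edgeR adjusted p = 5.7e-09).

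BNIP3L, an atypical BH3 protein of mitophagy, had a mean of 50.5 CPM with vehicle and 149 CPM with quizartinib in RPMI, and of 45.2 and 85.6 CPM in hBMSC-CM. It rose by 1.56 on the log2 scale in RPMI and by 0.92 in hBMSC-CM (edgeR adjusted p = 2.1e-18 and 1.38e-13), with an interaction of -0.64 (edgeR adjusted p = 1.75e-08). HRK, another BH3-only gene, was rare, with a mean of 0.351 and 1.43 CPM in RPMI and of 0.646 and 2.9 CPM in hBMSC-CM for vehicle and quizartinib. Its log2 rises of 2.01 and 2.2 rest on 27 counts with vehicle in RPMI and 45 counts with vehicle in hBMSC-CM. HRK was the only gene of the list that was higher in hBMSC-CM under quizartinib (1.02, edgeR adjusted p = 1.35e-05). With vehicle it lay below 1 CPM in both media, so it passed the filter on mean CPM only through its treated groups. Had HRK stayed at its vehicle levels, it would not have been tested. Its calls, and its part in the counts and medians of the list, therefore depend in part on the filter. BCL2L12 fell in both media (-0.65 and -0.73), and 25.9% of its exon bases are overlapped by genes on the other strand. BCL2L13, named after its values were seen, rose by 0.37 and 0.24. BIK, a BH3-only gene of the endoplasmic reticulum, was lower in hBMSC-CM with vehicle (-0.4, edgeR adjusted p = 0.0126) and with quizartinib (-0.71, edgeR adjusted p = 1.24e-05). With vehicle the libraries of the media overlapped for BIK.

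**Figure D4:**
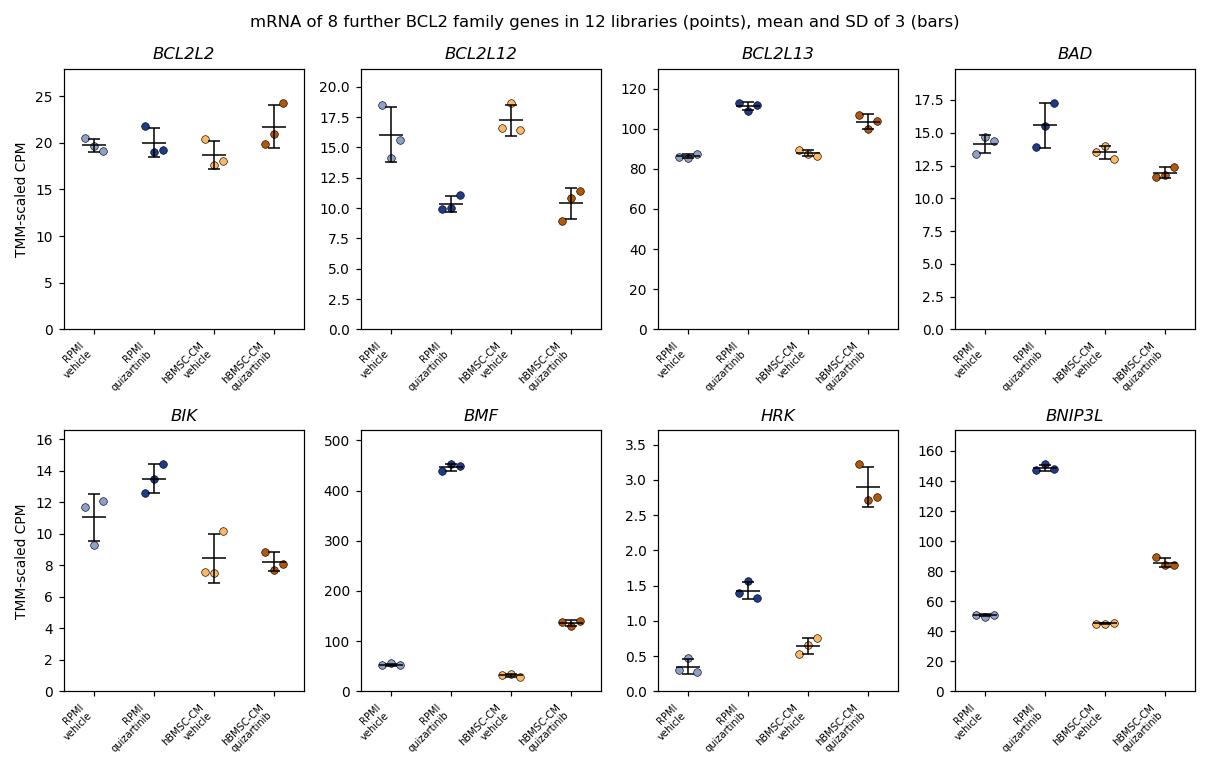
TMM-scaled CPM of the 8 further family genes that passed the filter, on linear axes from 0, with a point for each of the 12 libraries and bars for the mean and SD of 3. BMF and BNIP3L are highest with quizartinib in RPMI (means 447 and 149 CPM), and HRK is highest with quizartinib in hBMSC-CM (mean 2.9 CPM).

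Downstream of the family, a list of 19 genes covered the apoptosome, caspases and their inhibitors, and also VDAC1, VDAC2, AIFM1 and ENDOG, and 18 were tested. With quizartinib 3 rose and 11 fell in RPMI while 4 rose and 8 fell in hBMSC-CM (median log2 fold change -0.23 and -0.08, against 0.02 and 0.01 over all genes). VDAC1, VDAC2 and AIFM1 were among the 11 that fell in RPMI. Of all genes 39.2% fell in RPMI and 33.7% in hBMSC-CM. CYCS, the gene of cytochrome c, went from 252 ± 9.95 to 69 ± 1.52 CPM in RPMI and from 280 ± 17.1 to 174 ± 5.26 CPM in hBMSC-CM (SD, n = 3). Like BID it fell in both media (-1.87 and -0.68) with a positive interaction (1.18, edgeR adjusted p = 8.98e-12). CASP10 and CASP9, initiator caspases, rose by 1.12 and 0.77 in RPMI and by 0.77 and 0.34 in hBMSC-CM. Of 8 genes of the death receptor pathway, which acts on BID, 3 rose and 3 fell in each medium (median log2 fold change -0.01 and -0.02), where 79.3% and 67.1% of all genes were called. TNFRSF10A, a receptor for TRAIL, fell in both media (log2 change -1.52 in RPMI and -0.73 in hBMSC-CM), and CFLAR, an inhibitor of caspase-8, rose by 1.01 and 0.71.

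Genes that encode regulators of BH3-only transcription were read from a list of 14, of which 13 were tested. In RPMI 4 rose and 7 fell with the drug, and in hBMSC-CM 3 rose and 5 fell (median log2 fold change -0.2 and -0.07), shares near the 79.3% and 67.1% of all genes called. The forkhead genes FOXO4, FOXO1 and FOXO3, whose products are known activators of BCL2L11 and BBC3, rose by 1.3, 1.21 and 0.8 on the log2 scale in RPMI and by 0.52, 0.64 and 0.31 in hBMSC-CM. Under quizartinib FOXO4 and FOXO3 were lower in hBMSC-CM (-0.66 and -0.5), and FOXO1 was higher (0.38, edgeR adjusted p = 0.00172). For FOXO1 22.7% of the exon bases lie under another annotated gene on the same strand, so its count may miss reads. MYC, with a mean of 429 ± 14.7 CPM with vehicle and 50.5 ± 2.85 CPM with quizartinib in RPMI, had 787 ± 12.6 CPM with vehicle and 595 ± 18.5 CPM with quizartinib in hBMSC-CM (SD, n = 3). Its log2 change was -3.09 in RPMI and -0.4 in hBMSC-CM, with an interaction of 2.68 (edgeR adjusted p = 8.58e-17). E2F1, whose product can activate several BH3-only genes, changed by -2.88 and -0.96 in the same order.

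Of 18 genes known as p53 targets, the class to which BBC3, PMAIP1 and BAX also belong, 11 rose and 2 fell with quizartinib in RPMI, and 13 rose and 3 fell in hBMSC-CM, where 40.1% and 33.4% of all genes rose. The leaders among those that rose were BTG2 (2.17), TP53INP1 (1.91) and SESN3 (1.89, log2 change in RPMI), which FOXO factors are also known to activate. Those that fell were AEN (-1.3) and PLK3 (-1.15) in RPMI, and SESN2 (-0.61), AEN (-0.56) and PLK3 (-0.34) in hBMSC-CM. The best known targets CDKN1A and MDM2, named after their values were seen, had log2 changes of -0.03 each in RPMI, where neither was called, and rose by 0.32 and 0.15 in hBMSC-CM (edgeR adjusted p = 1.12e-06 and 0.00234). Under quizartinib 12 of the 18 were lower and 3 higher in hBMSC-CM than in RPMI (median log2 difference -0.27), where 34.3% of all genes were lower and 35.5% higher. BTG2 (-1.71), SESN3 (-1.58) and TP53INP1 (-1.23) led those lower, and CDKN1A (0.31) was among those higher. With vehicle 11 of the 18 were lower in hBMSC-CM than in RPMI and the other 7 did not pass the test, where 15.5% of all genes were lower. The median log2 fold change with quizartinib was 0.29 and 0.27 over the 18. Finally, 14 genes on the turnover and binding of MCL1 and BIM proteins were tested, and with quizartinib 5 rose and 5 fell in RPMI while 3 rose and 4 fell in hBMSC-CM (median log2 fold change 0.03 and -0.02), with 79.3% and 67.1% of all genes called. DYNLL2 and DYNLL1, the dynein light chains that hold BMF and BIM, changed by -0.84 and -0.42 in RPMI and by -0.52 and -0.23 in hBMSC-CM, and USP9X, a deubiquitinase of MCL1, rose by 0.5 and 0.26.

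Genes with a like course were named for the members whose group means span at least 1 on the log2 CPM scale, which held for BCL2A1 (2), BID (1.64) and PMAIP1 (1.14) and just failed for BCL2 (0.973). Likeness is the root mean square difference of centered log2 CPM over the 12 libraries, among 9288 genes, given as a description. Nearest to BID were DDX56 (0.063), an RNA helicase of ribosome assembly, MTERF3 (0.0666) and AGPAT5 (0.0676). DDX56 had means of 110 and 40.4 CPM in RPMI and of 128 and 84.7 CPM in hBMSC-CM, vehicle first. PMAIP1 was nearest to NCAPG (0.0619), a condensin subunit, MNS1 (0.0811) and SKA1 (0.0816). NCAPG had means of 204 and 114 CPM in RPMI and of 179 and 93.5 CPM in hBMSC-CM. BCL2A1 was nearest to VEGFA (0.146), TNFRSF10A (0.152) and TMEM147 (0.157).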

How the data were processed

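The data were 12 RNA-seq libraries of MOLM-13, 3 replicates in each of 4 groups, assigned from the labels. The authors trimmed adapters with BBDuk, aligned reads to the human genome (hg38, Ensembl) and took gene counts with STAR 2.6.0a, and they deposited raw counts with identifiers of the same gene name added. Use of strand in the counting is not given in the sources used here, so reads of antisense genes cannot be separated.

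Genes with a mean count and a mean CPM of at least 1 were kept, scaled with TMM and fitted in edgeR 4.0.16 (R 4.3.3) with 4 group means and 8 residual degrees of freedom. Two-sided p-values were adjusted (Benjamini-Hochberg) over all 12998 genes, with a threshold of 0.05. CPM includes the TMM factor (0.956 to 1.04). Total counts per library lay between 19966546 and 31546104. Intervals are at 95%. Exon lengths came from a GENCODE annotation of GRCh38. The script was tested on simulated data.

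The members and the gene lists were chosen with earlier results of these data known. All members are named in every comparison. From each further list, the 3 genes with the largest change in each direction among called genes could be named for quizartinib against vehicle in each medium and for hBMSC-CM against RPMI with each treatment, and the 3 genes nearest to a member. Alternatives were other scalings, DESeq2 1.42.0, limma-voom (limma 3.58.1), other filters, a stricter threshold, fewer groups, the replicate number as a block and each library left out.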

Additional observations from a re-analysis of the deposited data

Results flagged for a closer look

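The response to quizartinib differed between RPMI and hBMSC-CM for 5 members by edgeR's test of the interaction, which is the log2 fold change in hBMSC-CM minus that in RPMI. The value was 0.64 for BCL2 (edgeR adjusted p = 4.74e-08), 1.03 for BID (edgeR adjusted p = 6.46e-09) and 0.15 for MCL1 (edgeR adjusted p = 0.0233), all positive, with the lower value in RPMI. It was -0.62 for BBC3 (edgeR adjusted p = 0.00228), which rose in RPMI, and -0.29 for PMAIP1 (edgeR adjusted p = 0.0104), which fell more in hBMSC-CM. Of all genes tested 45.2% had a called interaction.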

How the results depend on the processing

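Over 1310 repeats of the members' log2 fold changes under other settings, 1247 kept their direction and side of the threshold, 10 lost and 15 gained a call, and 38 changed sign, none of the latter for a change that had been called. With upper-quartile factors 4 members in place of 2 were lower in hBMSC-CM under quizartinib. With library size only, treated cells in hBMSC-CM against vehicle in RPMI gave 2 members higher and 3 lower, and without a library this comparison gave 3 to 5 lower. With vehicle, 1 to 2 members were higher in hBMSC-CM when a library was left out, and 2692 genes were called at an adjusted p of 0.01 in place of 4174. The interaction was negative for 1 member in place of 2 without a filter on low counts and at an adjusted p of 0.01. The share of calls that were higher with quizartinib was 49.8% in hBMSC-CM and 62.8% with library size only or 60% with upper-quartile factors. In RPMI that share went from 50.6% to 57.6% with upper-quartile factors. For hBMSC-CM against RPMI with vehicle the share of higher calls went from 51.8% to 42.1% with these factors. Under quizartinib it went from 50.8% to 45.7% with these factors and to 57.1% without a filter. For treated cells in hBMSC-CM against vehicle in RPMI it went from 49.2% to 62.1% with library size only, and for the interaction from 57.6% to 70.6% without a filter.

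Sign changes concerned values near 0. BAX with quizartinib in RPMI was 0.01 with upper-quartile factors, and in hBMSC-CM 0.01 with library size only. BCL2L1 in RPMI was -0.09 with no filter and -0.04 with edgeR's filter, with -0.01 to 0.06 over left-out libraries, and in hBMSC-CM 0.04 with library size only and 0.01 with upper-quartile factors. MCL1 in hBMSC-CM was 0.06 and 0.04 under these. BBC3 in hBMSC-CM was 0 with DESeq2's size factors and test, -0.02 with no filter and -0.01 with edgeR's filter, with -0.04 to 0.1 over left-out libraries. Between media with vehicle, left-out libraries gave -0.04 to 0.01 for BCL2L1 and -0.11 to 0.03 for BCL2L11. For treated cells in hBMSC-CM against vehicle in RPMI, BCL2L1 was 0 with library size only, and MCL1 was 0 with DESeq2's size factors and test, -0.02 with no filter and -0.01 with edgeR's filter, with -0.01 to 0.02 over left-out libraries. The BAX interaction was 0.01 with library size only, 0.07 with no filter and 0.03 with edgeR's filter, with -0.05 to 0.06 over left-out libraries. The cause was not tested. The order of levels kept 4 of 10 ranks with the longest transcript. Of 120 group means of the members under another scaling, 28 moved by over 1 SD. Among 301 called values of the listed genes, 241 kept direction and side of the threshold in every setting. The rest lost their call in some setting, and 0 reversed.

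No pairing by replicate number was seen: of 18 pairs with the same number 0 correlated above 0.1 (-0.23 to 0.1). In every other group at once, 0 of 12 libraries correlated best with their own number. That condition is strict, so this last count says little by itself. With a replicate block 10224 genes were called in RPMI in place of 10307, 8611 in place of 8722 in hBMSC-CM, and no member's call changed.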
